A study of Mus musculus with 2 samples.

Results

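The Schlafen family of the mouse was read here through 6 genes, Slfn1, Slfn2, Slfn4, Slfn5, Slfn8 and Slfn9, which were chosen by symbol from the 32589 features that both libraries list. All 6 symbols were found, each on 1 row. The cells came from C57BL/6 mice that had been given vehicle or corticosterone, a glucocorticoid stress hormone, by oral gavage to model depression. Microglia, which are macrophages resident in brain tissue, were sorted from the prefrontal cortex by low CD45 and by CD11b, and each group gave 1 library of single cells. The age and sex of the mice, the dose, the duration and the number of animals in a library were not given in the sources used here. The deposited files carry the words wild type and depression, and each was assigned to vehicle or corticosterone through its sample record. With 1 library per group there is no replicate and no test, so treatment and library, with any difference in preparation, cannot be told apart.

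Schlafen genes take their name from the German word for sleeping, after the growth arrest that Slfn1 causes in developing T cells. The family divides by length. Slfn1 and Slfn2 encode short proteins, Slfn4 and its neighbour Slfn3 proteins of middle length, and Slfn5, Slfn8 and Slfn9 long proteins that add a helicase-like region. Slfn2 is needed for quiescence of T cells and monocytes and shields transfer RNA from cleavage, Slfn4 is known from myeloid cells, and Slfn8 and Slfn9 are relatives of human Schlafen proteins that cut transfer RNA. Several members are targets of type I interferon, the antiviral cytokine family that signals through the receptor pair Ifnar1 and Ifnar2, the kinases Jak1 and Tyk2, and factors such as Stat2 and Irf9. Those factors bind the interferon-stimulated response element, a DNA motif with paired GAAA letters.

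The 6 genes lie within 238868 bases of chromosome 11 (GRCm38, GENCODE vM21), from the start of Slfn5 at 82951349 to the end of Slfn4 at 83190216, and all are protein-coding. Slfn5 (ENSMUSG00000054404, 82951349 to 82964840), Slfn2 (ENSMUSG00000072620, 83065112 to 83070678), Slfn1 (ENSMUSG00000078763, 83116849 to 83122670) and Slfn4 (ENSMUSG00000000204, 83175186 to 83190216) are on the plus strand. Slfn9 (ENSMUSG00000069793, 82978390 to 82991830) and Slfn8 (ENSMUSG00000035208, 83002158 to 83020810) are neighbours on the minus strand. An antisense gene, Slfn5os, overlaps Slfn5, and whether the counting used strand is not given in the sources used here. Slfn5os held 2 UMIs in vehicle and 10 in corticosterone, where a UMI is the barcode by which copies of 1 captured transcript are counted as 1.

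Near-identical copies can trade reads, so the last 500 bases of the longest transcript of each member were cut into words of 50 bases and looked for in all other genes. Slfn8 shared 14 of 451 words with Slfn9, which is 3.10%, and the other members shared 0. How the authors' counting treated reads that fit both genes is not given, so the separate values of Slfn8 and Slfn9 are uncertain. The share of words does not measure by how much.

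The stretches upstream of the starts are shown because several members were higher in the same cells as interferon targets. The letters show which starts lie near an exact match of the core of an interferon motif. The sets that the letters form are not the sets that the levels form, since Slfn2 goes with the long members in microglia-like cells. All 6 members have a promoter in the RefSeq table (GRCm38.p6), and the 250 bases before the start were searched on both strands for GAAA, any 2 bases and GAAA again, the core of the interferon-stimulated response element. It was found a single time in each of the long members. Capitals mark the match, and in Slfn8 and Slfn9 it reads on the opposite strand.
Slfn5, chr11:82951917-82951986, plus strand: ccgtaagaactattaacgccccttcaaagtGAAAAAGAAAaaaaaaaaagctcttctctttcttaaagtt
Slfn8, chr11:83020819-83020888, minus strand: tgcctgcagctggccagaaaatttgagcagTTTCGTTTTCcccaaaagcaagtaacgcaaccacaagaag
Slfn9, chr11:82991836-82991905, minus strand: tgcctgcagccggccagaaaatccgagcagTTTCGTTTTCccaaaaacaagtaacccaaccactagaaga

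The matches of Slfn8 and Slfn9 have the same 10 letters and end 39 and 36 bases before the start. Over the whole 250 bases, 85.1% of aligned positions were identical between Slfn8 and Slfn9, against at most 64.4% for any other pair of members. The match of Slfn5 runs into a stretch of A, ends 146 bases before the RefSeq start, and that start lies 753 bases inside the GENCODE start. The core occurs in 978 of 32851 promoter windows of this length, which is 2.98%. The letters TTCNNNGAA, the gamma-activated site, were in none of the 6 windows and in 7.02% of all windows.

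The windows of Slfn1, Slfn2 and Slfn4 hold no exact match of this core, and near matches were not looked for in any window. They share another run of 11 letters, the longest common to any 3 of the 6 windows, where every other set of 3 shares at most 7. Capitals mark it.
Slfn1, chr11:83116716-83116786, plus strand: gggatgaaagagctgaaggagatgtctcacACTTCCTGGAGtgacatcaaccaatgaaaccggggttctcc
Slfn2, chr11:83065027-83065097, plus strand: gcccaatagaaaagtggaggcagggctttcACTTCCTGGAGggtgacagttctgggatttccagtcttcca
Slfn4, chr11:83175083-83175153, plus strand: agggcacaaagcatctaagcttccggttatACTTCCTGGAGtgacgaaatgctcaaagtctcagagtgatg

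ACTTCCTGGAG was found in 20 of all 32851 windows (0.0609%), in either direction, and these 3 members are the only genes of the family among the 20. It holds GGAA on its other strand, the core letters bound by ETS factors, among them PU.1 of myeloid cells. It overlaps neither motif above and was found by comparing the windows, not looked for by name. Such matches describe letters and do not show that a factor binds there.

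After filtering, the vehicle library held 10500 cells with 49325067 UMIs and the corticosterone library 17883 cells with 85103539 UMIs, and 101 kept cell barcodes occurred in both. Cells were clustered without the Schlafen genes and named from marker genes. Microglia-like cells numbered 8013 and 15331, neutrophil-like cells 456 and 397, border-associated macrophage-like cells 1063 and 801, and monocyte-like cells 30 and 64, in vehicle and corticosterone. All 12 microglia markers were detected in the microglia-like cells, at a median of 2110 and 1803 CPM, where CPM is the UMIs of a gene per 1000000 UMIs of the class. The cells of the libraries fell in different clusters, 7437 vehicle cells in a cluster led by Pecam1 and Tmem44 and 14034 corticosterone cells in one led by Kcnj10 and Gpr84. The 14 neutrophil markers summed to 140562 and 194127 CPM in neutrophil-like cells, although the sort asked for low CD45, and the 10 monocyte markers to 8851 and 26107 CPM in monocyte-like cells. Barcodes of other classes carried microglial RNA: 4 microglia markers stood at a median of 56.8% and 34.9% of their microglia-like level in neutrophil-like cells, 23.4% and 16.4% in monocyte-like cells, and 77.8% and 82.5% in erythroid cell-like barcodes. Brackets below give 95% intervals that cover counting error only and treat each UMI as independent.

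In microglia-like cells, Slfn2, Slfn5 and Slfn9 were at least 2-fold higher in the corticosterone library. Slfn8 was higher by less than 2-fold, and Slfn1 and Slfn4 were near absent in both libraries. With a minimum mean of 5 CPM, 4 members could be counted, and 3 of these 4 were at least 2-fold higher, against 216 of 9677 genes (2.23%) at that level.

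Slfn5, a long member found in the nucleus, stood at 12.2 CPM (11 to 13.4) in the vehicle library against 70.9 CPM (69.0 to 72.9) in the corticosterone library. The intervals were far apart, and the log2 ratio of corticosterone over vehicle was 2.54 (2.39 to 2.69), a 5.82-fold difference. Slfn2, the quiescence factor, was at 44.4 CPM (42.1 to 46.7) in vehicle cells, while corticosterone cells had 135 CPM (133 to 138), giving a log2 ratio of 1.61 (1.53 to 1.69). Slfn9 had 9.85 CPM (8.80 to 11) in vehicle, while corticosterone cells had 25.8 CPM (24.7 to 27.0), giving a log2 ratio of 1.39 (1.22 to 1.57). Corticosterone was the higher library for each of these, without overlap of the intervals. Slfn8 had 55.5 CPM (53.0 to 58.2) in vehicle, while corticosterone cells had 90.3 CPM (88.1 to 92.5), giving a log2 ratio of 0.70 (0.63 to 0.78). The separate steps of Slfn9 and Slfn8 carry the uncertainty of their shared sequence, although both were higher in the same library.

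Slfn1 had 30 UMIs in vehicle microglia-like cells and 67 in corticosterone, 0.927 CPM (0.625 to 1.32) and 0.932 CPM (0.722 to 1.18). Slfn4 had 66 and 201 UMIs, 2.04 CPM (1.58 to 2.59) and 2.80 CPM (2.42 to 3.21), a log2 ratio of 0.46 (0.05 to 0.88). Neutrophil RNA was present in these cells at a like level: 8 neutrophil markers, none of them at 0, stood at a median of 0.353% of their neutrophil-like level in vehicle (range 0.321 to 0.401%) and 0.0780% in corticosterone (0.0754 to 0.0969%). Slfn1 stood at 0.357% and 0.154% of its neutrophil-like level, and Slfn4 at 0.399% and 0.124%. In vehicle both values lay inside the range of the markers, and in corticosterone both lay above it. In the microglia-like cells without any UMI of the neutrophil list, 3354 and 9293 cells, the log2 ratio was 1.10 (-0.13 to 2.62) for Slfn1 and 1.35 (0.40 to 2.46) for Slfn4. Over the same cells Slfn5 had 2.47 and Slfn2 1.66, close to their values in all microglia-like cells. The values of Slfn1 and Slfn4 in these cells were the highest of 15 alternatives. The lowest were -0.14 for Slfn1, without the interferon-led cluster described below, and 0.17 (-0.23 to 0.58) for Slfn4, with the 6% highest doublet scores removed.

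**Figure D1:**
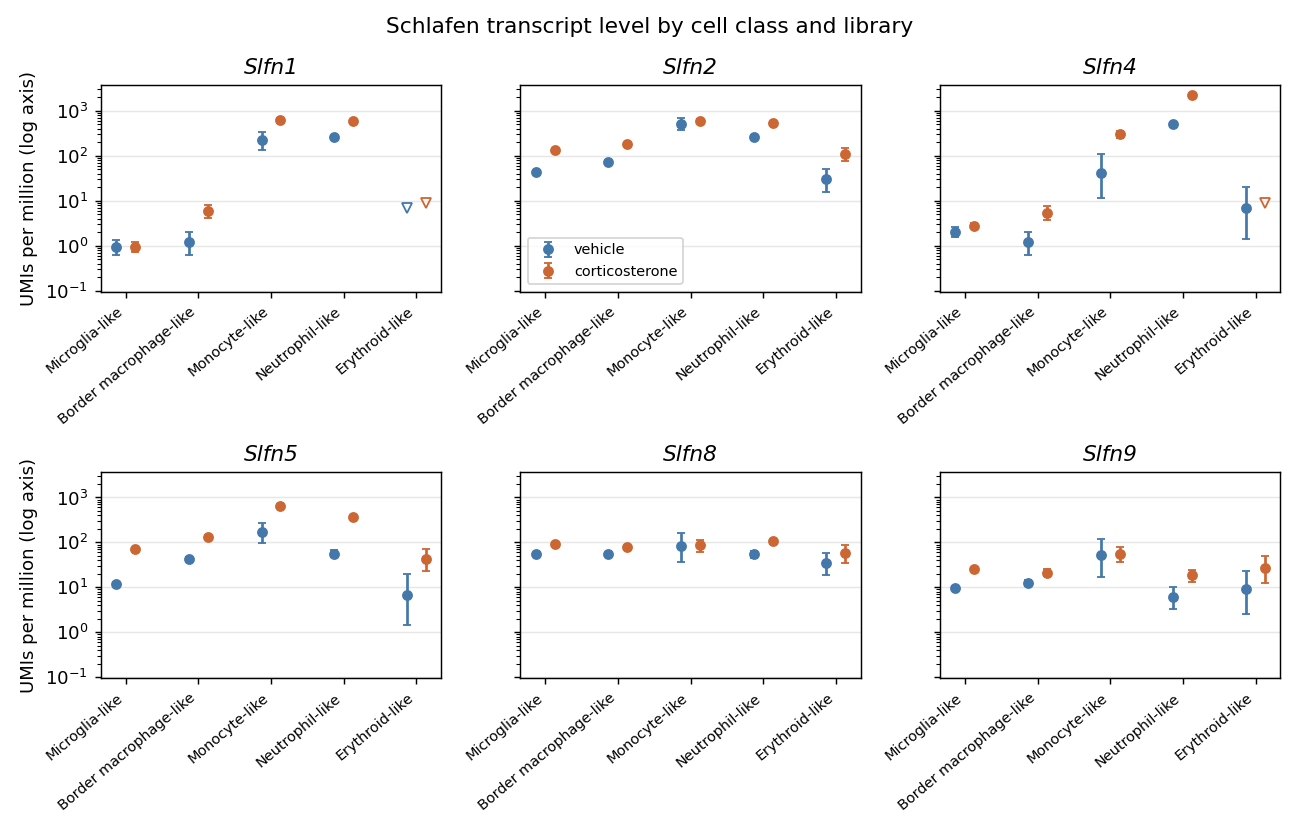
Level of each Schlafen gene in CPM (log axis) in 5 cell classes, vehicle in blue and corticosterone in orange, with exact Poisson intervals; an open triangle marks a class with 0 UMIs and is drawn at the level of 3 UMIs. Slfn1 and Slfn4 lie far higher in the neutrophil-like than in the microglia-like class, whereas Slfn8 lies between 34.6 and 107 CPM in all 5.

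The same direction appeared in shares of cells. Cells were drawn down to 1000 UMIs each, and 646 vehicle and 111 corticosterone cells below that depth were left out. Then Slfn2 was found in 4.29% of vehicle microglia-like cells (3.84 to 4.78%) and 12.5% of corticosterone cells (12 to 13.1%). For Slfn5 the shares were 1.11% (0.886 to 1.38%) and 5.63% (5.27 to 6.01%), for Slfn8 5.01% and 8.28%, and for Slfn9 1.07% and 2.36%. The interval was higher in corticosterone for these 4 members, which are the 4 with a mean of at least 5 CPM, against 18.8% of 9677 genes at that level. Below it, the intervals of Slfn1 (0.0814% and 0.112%) and Slfn4 (0.204% and 0.210%) overlapped. Without thinning the shares were 13.5% and 37.7% for Slfn2, 3.58% and 17% for Slfn5, 17.2% and 28.7% for Slfn8 and 3.27% and 8.23% for Slfn9. Erythroid cell-like barcodes were taken as the class to compare with, although their own expression of these genes was not tested. They had thinned shares of 1.72% and 12.3% for Slfn2, 0% and 1.54% for Slfn5, 5.17% and 9.23% for Slfn8 and 0.862% and 1.54% for Slfn9, over 116 and 65 barcodes. The 0 of 116 allows a share of up to 2.59%. The share of Slfn8 in microglia-like cells was below that of the erythroid barcodes in both libraries, and for all 4 members the intervals of these classes overlapped. Shares are therefore not read here as numbers of expressing microglia. Median depths were 3164 and 4001 UMIs in microglia-like cells and 2499 and 3766 in the erythroid barcodes, which also hold the microglial RNA given above. In those barcodes Slfn2 stood at 67.5% and 79.6% of its CPM in microglia-like cells and Slfn5 at 56.8% and 59.2%.

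Among microglia-like cells, the members were unevenly spread. A cluster led by the interferon targets Ifit2, Ifit3 and Cxcl10 held 60 vehicle cells (0.571% of the library) and 1073 corticosterone cells (6.00%). Slfn5 was at 306 CPM in its vehicle cells against 10.1 CPM in the other microglia-like clusters, a log2 ratio of 4.92 (4.52 to 5.30). In corticosterone Slfn5 stood at 396 against 43.0 CPM, a log2 ratio of 3.20 (3.12 to 3.28). Slfn9 followed with log2 ratios of 2.93 (2.11 to 3.66) in vehicle and 2.65 (2.51 to 2.79) in corticosterone. Slfn2 had 2.35 and 1.14, and Slfn8 had 1.99 and 1.47. These 4 members were at least 2-fold higher in the interferon-led cluster in both libraries, against 1.48% of 9175 genes. The Schlafen genes did not enter the clustering, but the cluster was formed from genes that vary with them. Slfn1 and Slfn4 had 0 UMIs in the 60 vehicle cells, where 3 UMIs would be 13.5 CPM.

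Inside the interferon-led cluster the libraries lay closer together. Slfn5 stood at 306 and 396 CPM there, a log2 ratio of 0.37 (0.02 to 0.74). Slfn2 was at 221 and 273 CPM (0.30, -0.11 to 0.75), Slfn8 at 216 and 220 CPM (0.02, -0.39 to 0.47) and Slfn9 at 72.1 and 115 CPM (0.67, -0.04 to 1.48). For the last 3 the interval includes 0 over 60 vehicle cells. Its upper end still allows a log2 ratio of 0.75 for Slfn2, 0.47 for Slfn8 and 1.48 for Slfn9. In the other microglia-like clusters, 7953 and 14258 cells, Slfn5 still stood at 10.1 and 43.0 CPM (2.09, 1.92 to 2.26), Slfn2 at 43.2 and 124 CPM (1.52), Slfn8 at 54.4 and 79.2 CPM (0.54), and Slfn9 at 9.42 and 18.2 CPM (0.95, 0.77 to 1.14). Without the interferon-led cluster, a choice made after the data had been seen, 2 members in place of 3 were therefore at least 2-fold higher, Slfn9 falling just short.

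Cells were also binned by their UMIs of 30 interferon target genes, of which 28 are in the files and none is a Schlafen gene, after thinning to 1000 UMIs. With no target UMI, Slfn2 was found in 4.03% of 1289 vehicle cells (3.03 to 5.26%) and 8.43% of 534 corticosterone cells (6.21 to 11.1%). With 8 or more target UMIs, the shares of Slfn2 were 17.6% of 68 vehicle cells (9.46 to 28.8%) and 21.1% of 1661 corticosterone cells (19.2 to 23.2%). Slfn5 went from 0.698% and 2.43% with no target UMI to 19.1% (10.6 to 30.5%) and 18.8% (16.9 to 20.7%) with 8 or more. At 2 to 3 target UMIs, summed over the list, the libraries still differed, 4.09% and 10.6% for Slfn2 and 0.921% and 3.04% for Slfn5. Slfn8 moved less over the bins, from 4.89% and 7.30% to 17.6% and 15.1%. The cells without a target UMI made up 17.5% of vehicle and 3.51% of corticosterone microglia-like cells, and summed over them the log2 ratio of corticosterone over vehicle was 1.53 (0.92 to 2.16) for Slfn5, 1.13 (0.83 to 1.42) for Slfn2, 0.59 (-0.08 to 1.23) for Slfn9 and 0.11 (-0.19 to 0.41) for Slfn8.

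**Figure D2:**
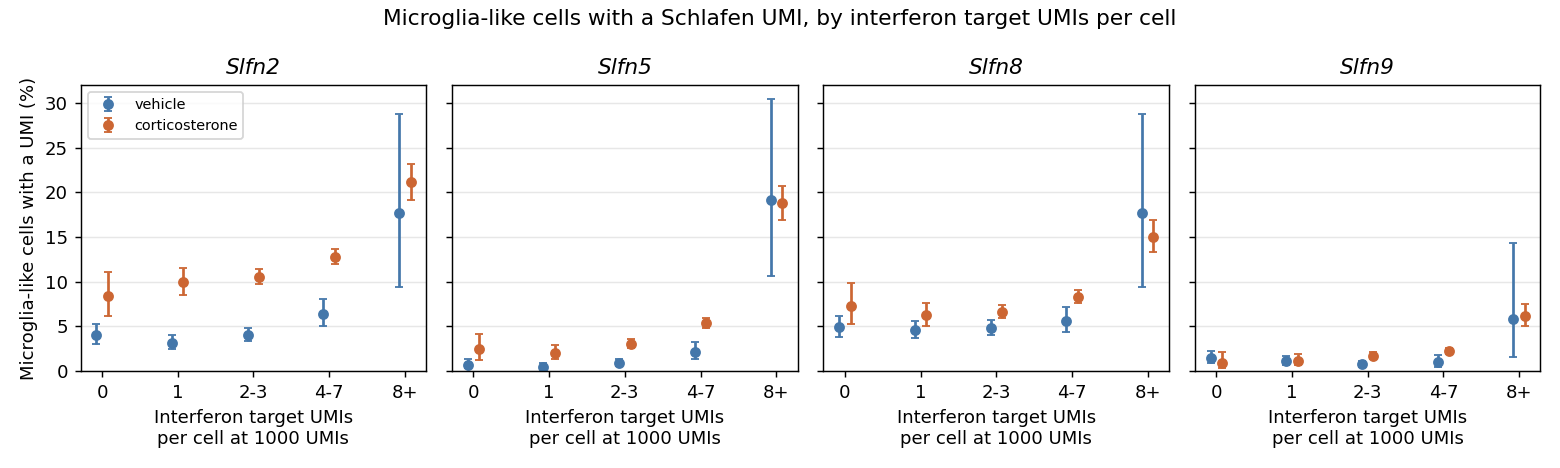
Share of microglia-like cells with a UMI of Slfn2, Slfn5, Slfn8 or Slfn9 (vertical axis, percent) in bins of interferon target UMIs per cell, cells thinned to 1000 UMIs, with exact binomial intervals. In both libraries the shares are highest in the bin of 8 or more; Slfn2 is higher in corticosterone in the 4 bins below it, and the intervals overlap in the bin of 8 or more for all 4 members.

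Beside the members, the interferon pathway differed between the libraries mainly at its targets. Of 25 target genes tested in microglia-like cells, 18 were at least 2-fold higher in corticosterone and none lower, with a median log2 ratio of 1.93, against a median of -0.01 over all 9677 genes. The Schlafen members ranged from 0.70 to 2.54 with a median of 1.5 over the 4 tested. At a mean of at least 20 CPM, the targets with the highest ratio were Irf7, the factor that amplifies interferon production, at 6.61 and 45.7 CPM (2.79), Ifit2, which binds viral RNA, at 13.1 and 81.6 CPM (2.64), and Usp18, a brake on the receptor, at 7.63 and 47.1 CPM (2.63). The lowest were the ubiquitin ligase gene Herc6 (0.50), Trim30a (0.68) and the RNA sensor gene Ddx58 (0.72), close to Slfn8.

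Upstream of the targets the differences were smaller. Among 6 transducers, 2 were at least 2-fold higher, among them Stat2 at 27.5 and 67.4 CPM (1.30), and the lowest was Jak2 at 35.3 and 34.9 CPM (-0.02). None of 5 receptors reached 2-fold, from Ifngr1 at -0.03 to Ifngr2 at 0.46. Of the 6 brakes 1 did, Usp18, and the lowest was Pias1 at -0.21. None of the 11 ligands reached 5 CPM. Ifnb1, interferon beta, chosen after its values were seen, had 27 UMIs in vehicle and 271 in corticosterone, 0.834 and 3.77 CPM, a log2 ratio of 2.18. Ifna2, an interferon alpha gene, had 11 UMIs in vehicle and 1 in corticosterone, and Ifnz had 2 and 9.

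Genes of the processes in which Schlafen proteins act are set against a background of 2.23% of all tested genes at least 2-fold higher and 2.05% at least 2-fold lower, and counts near 0 in lists of this size do not stand apart from it. Of 9 genes of transfer RNA handling and cleavage, 0 were 2-fold higher or lower, with a median of -0.02. Nsun2, which methylates transfer RNA, was highest at 39.5 and 51.4 CPM (0.38). Of 13 genes of quiescence and cell cycle, 0 were 2-fold higher and 1 was 2-fold lower, the quiescence factor Klf2 at 477 and 160 CPM (-1.58). The highest of the 13 was Ccnd1, a cyclin, at 250 and 340 CPM (0.44), and the median was -0.33. Listed genes under the minimum of 5 CPM went both ways. Mki67 had 124 UMIs in vehicle and 24 in corticosterone (-3.52), Top2a 91 and 35 (-2.53) and Ccnd2 20 and 337 (2.92). A small microglia-like cluster led by Mki67 and Top2a held 20 vehicle and 2 corticosterone cells. Its part in the Mki67 and Top2a counts was not tested. Neutrophil RNA in the microglia-like cells was lower in corticosterone, 7 of 7 tested neutrophil genes by at least 2-fold, among them S100a8 at 190.5 and 52.9 CPM (-1.85) and Ngp at 53.2 and 18.0 CPM (-1.56).

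**Figure D3:**
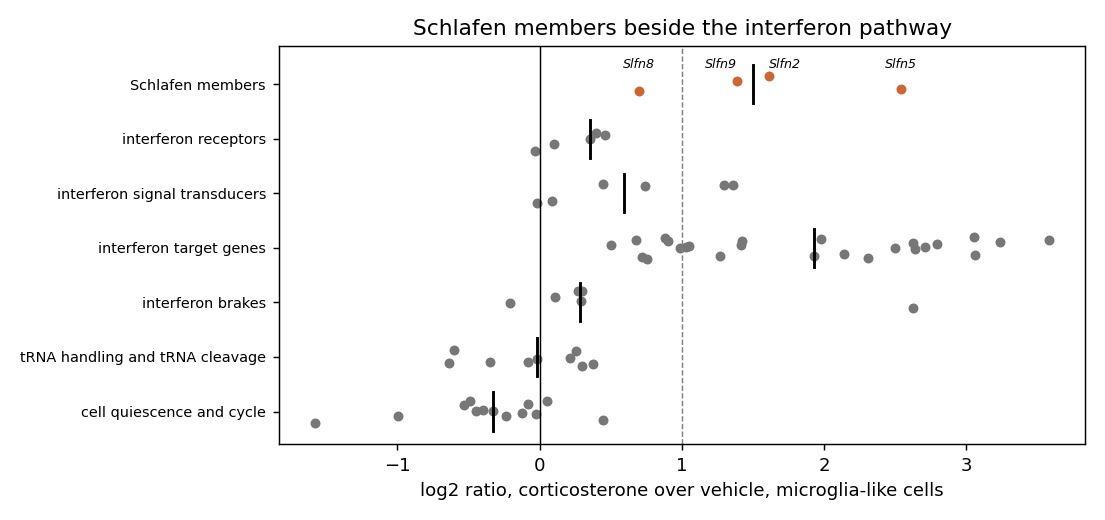
Log2 ratio of corticosterone over vehicle in microglia-like cells (horizontal axis) for each gene with a mean of at least 5 CPM, by list; bars mark medians, the dashed line marks 2-fold and Schlafen genes are orange. The 4 Schlafen members lie between 0.70 and 2.54, within the spread of the 25 interferon targets, while the medians of receptors and transducers are 0.35 and 0.59.

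Neutrophil-like cells carried Slfn1 and Slfn4 at levels far above those of microglia-like cells. Inside each library, 4 of 6 members, Slfn1, Slfn2, Slfn4 and Slfn5, were at least 2-fold higher in neutrophil-like than in microglia-like cells, where 7.35% of 9506 genes were so in both libraries. Slfn1 and Slfn4 passed the minimum of 5 CPM only through the neutrophil-like class and so had to differ. Of the other 4 members, Slfn2 and Slfn5 were higher. Slfn4 was at 511 CPM (482 to 541) in vehicle neutrophil-like cells and at 2252 CPM (2192 to 2314) in corticosterone, log2 ratios over microglia-like cells of 7.97 (7.61 to 8.35) and 9.65 (9.45 to 9.86). Slfn1 was at 259 CPM (239 to 281) and 604 CPM (572 to 636), log2 ratios of 8.13 and 9.34. The microglia-like levels under these ratios lay inside the range of carried neutrophil RNA in vehicle and above it in corticosterone. The part of that RNA in the sizes of the ratios was not tested. The margin of Slfn2, at 260 and 537 CPM, was smaller with 2.55 and 1.99, as was that of Slfn5, at 55.9 and 366 CPM, with 2.20 and 2.37. When each cell was classed by its own markers, the vehicle ratios were 7.20 for Slfn1, 6.82 for Slfn4, 1.63 for Slfn2 and 1.38 for Slfn5, and the corticosterone ratio of Slfn1 was 8.72.

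Slfn8 and Slfn9 differed by less than 2-fold between these classes in both libraries. Slfn8 was at 54.2 CPM (45.1 to 64.6) and 107 CPM (94 to 121) in neutrophil-like cells, log2 ratios over microglia-like cells of -0.04 (-0.31 to 0.23) and 0.24 (0.05 to 0.43). TMM factors of edgeR shift every gene of this comparison by 0.28 in vehicle and 0.44 in corticosterone, which puts Slfn8 at 0.25 (-0.03 to 0.51) and 0.69 (0.50 to 0.87). The clusters of the class, described below, lay on opposite sides in corticosterone, the Cxcr2-led one at 0.79 (0.58 to 0.999) and the Camp-led one at -0.82 (-1.22 to -0.44). Slfn9 had 14 and 43 UMIs, 6.07 CPM (3.32 to 10.2) and 18.5 CPM (13.4 to 25.0), with log2 ratios of -0.70 (-1.59 to 0.07) and -0.48 (-0.95 to -0.04). The microglia markers in neutrophil-like cells stood at 56.8% and 34.9% of their microglia-like level, and how much of the Slfn8 and Slfn9 signal came with that RNA was not tested.

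Between the libraries, neutrophil-like cells were higher in corticosterone for all 6 members. The log2 ratio was 2.71 (2.44 to 2.99) for Slfn5, 2.14 (2.05 to 2.23) for Slfn4, 1.61 (0.71 to 2.60) for Slfn9, 1.22 (1.08 to 1.36) for Slfn1, 1.05 (0.91 to 1.19) for Slfn2 and 0.98 (0.66 to 1.30) for Slfn8. Thus 5 of 6 were at least 2-fold higher, against 2.62% of 9542 genes. The markers of the class were higher in corticosterone too, 14 of 14, among them Mmp9 at 676 and 1470 CPM, Retnlg at 4251 and 8292 CPM and Cxcr2 at 324 and 589 CPM, while the carried microglia markers went from 56.8% to 34.9%. The part of these in the ratios was not tested. After thinning, over 357 and 390 cells, Slfn4 was detected in 39.2% of vehicle neutrophil-like cells (34.1 to 44.5%) against 80.3% in corticosterone (76.0 to 84.1%), and in 56.1% and 95.5% without thinning. Slfn1 was found in 29.7% and 57.2%, Slfn2 in 31.1% and 49.2%, and Slfn5 in 6.72% and 35.4%. At that depth 34.5% of vehicle and 8.21% of corticosterone neutrophil-like cells held a UMI of no member, and in microglia-like cells 89.0% and 74.9% held none. Erythroid barcodes held Slfn1 in 0% of either library and Slfn4 in 0.862% and 0%.

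**Figure D4:**
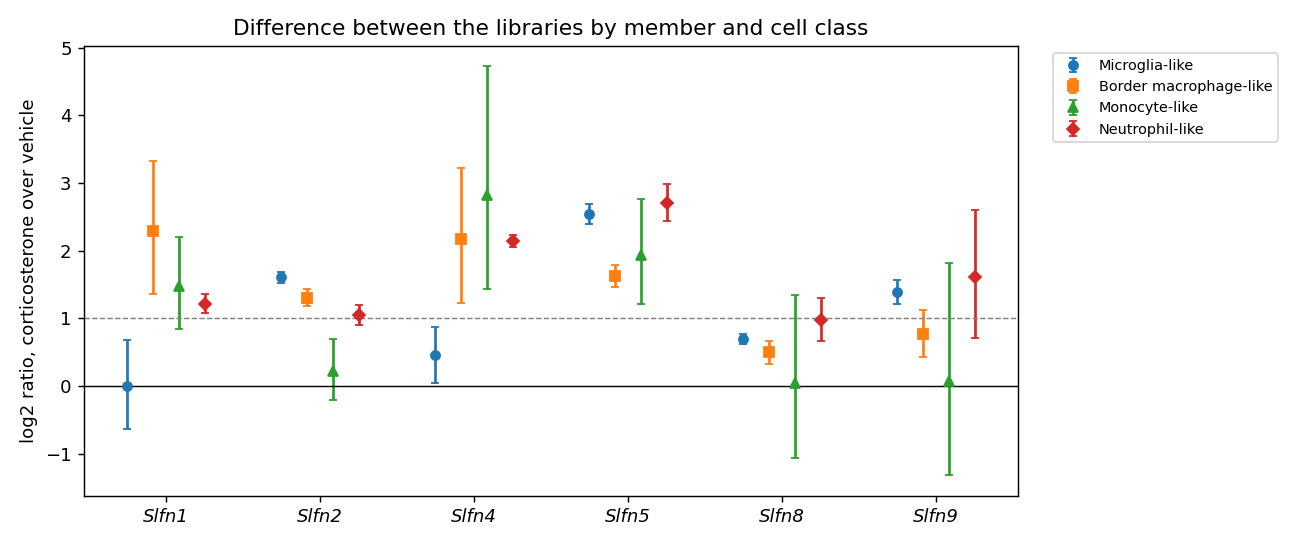
Log2 ratio of corticosterone over vehicle (vertical axis) for each Schlafen gene in 4 cell classes, with exact intervals for a ratio of counts; the dashed line marks 2-fold. Slfn5 lies above 2-fold in microglia-like, macrophage-like, monocyte-like and neutrophil-like cells, with 2.54, 1.62, 1.94 and 2.71. Slfn4 lies above it in macrophage-like (2.18), monocyte-like (2.83) and neutrophil-like cells (2.14) but not in microglia-like cells (0.46). The vehicle counts of Slfn4 are 13 UMIs in macrophage-like and 4 in monocyte-like cells.

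The neutrophil-like class held a pair of clusters in unequal numbers. A cluster led by Cxcr2, a receptor of mature neutrophils, had 198 vehicle and 269 corticosterone cells, and one led by the granule genes Camp, Ngp and Ltf of maturing neutrophils had 258 and 128, with median depths of 2720 and 7427 UMIs. Slfn5 was at 92.7 CPM in the Cxcr2-led and 10.6 CPM in the Camp-led cluster in vehicle, a log2 ratio of 3.12 (2.23 to 4.17), and at 615 and 86.1 CPM in corticosterone, a log2 ratio of 2.84 (2.52 to 3.16). Slfn8 was at 69.9 and 34.8 CPM in vehicle (1.01, 0.43 to 1.61) and 156 and 51.3 CPM in corticosterone (1.61, 1.17 to 2.06). These 2 of 6 members were at least 2-fold higher in the Cxcr2-led cluster in both libraries, against 12% of 8933 genes. Slfn4 differed little in vehicle, with 558 and 454 CPM (0.30), and more in corticosterone, with 3263 and 1116 CPM (1.55, 1.46 to 1.64). Slfn1 was at 325 and 179 CPM (0.86) and at 813 and 368 CPM (1.14). Slfn2 and Slfn9 lay within 0.41 on the log2 scale between the clusters in both libraries, Slfn9 with an interval of -1.60 to 1.92 in vehicle.

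Within each of these clusters the libraries still differed. In the Cxcr2-led cluster the log2 ratio of corticosterone over vehicle was 2.55 (2.43 to 2.66) for Slfn4 and 2.73 (2.45 to 3.02) for Slfn5. In the Camp-led cluster it was 1.30 (1.14 to 1.46) for Slfn4 and 3.02 (2.11 to 4.07) for Slfn5, the latter from 11 vehicle UMIs. Slfn1 had 1.32 and 1.04, and Slfn2 1.23 and 0.81. At a resolution of 1, neutrophil-like cells outside the Cxcr2-led cluster fell in a pair of clusters. One led by Ltf and Ly6g held 121 vehicle and 110 corticosterone cells, at a median of 5734 UMIs. The other, with the cell cycle genes Ube2c and Mki67 among its leading genes, held 177 and 20, at a median of 1405 UMIs. How much of the Camp-led ratios came from this mix was not tested. Against microglia-like cells, the Camp-led cluster alone had Slfn5 at -0.19 in vehicle and 0.28 in corticosterone, so the higher level of Slfn5 in neutrophil-like cells was found in the Cxcr2-led cluster, whereas Slfn1 (7.59 and 8.63) and Slfn4 (7.80 and 8.64) exceeded microglia-like cells in the Camp-led cluster as well.

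**Figure D5:**
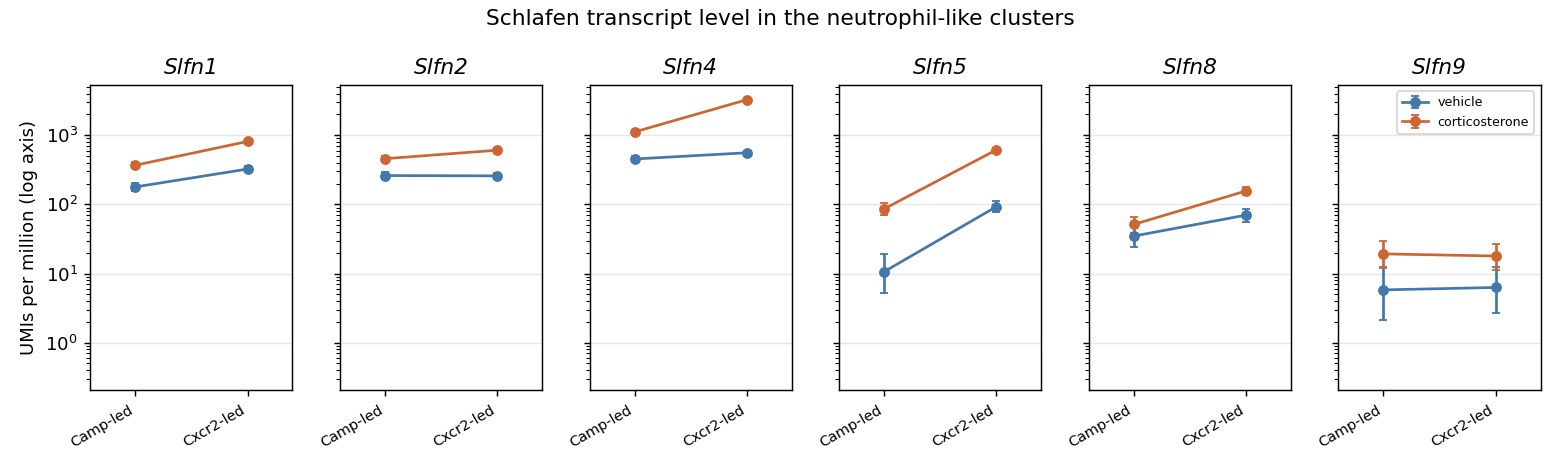
Level of each Schlafen gene in CPM (log axis) in the Camp-led and the Cxcr2-led neutrophil-like clusters; lines join the values of a library and bars are exact Poisson intervals. Slfn5 is 10.6 and 92.7 CPM in vehicle and 86.1 and 615 CPM in corticosterone, and Slfn2 and Slfn9 differ little between the clusters.

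Monocyte-like cells were few, and the vehicle class held 30 cells with 95923 UMIs, so each vehicle value rests on few counts. In vehicle Slfn1 had 21 UMIs, or 219 CPM (136 to 335), against 613 CPM (545 to 686) in corticosterone. Slfn2 had 511 CPM (378 to 675) and 599 CPM (532 to 671). Slfn5 was at 167 CPM (95.3 to 271) and 639 CPM (571 to 714). Slfn4 had 4 UMIs in vehicle, all in 1 cell, or 41.7 CPM (11.4 to 107), and 296 CPM (250 to 349) in corticosterone. Slfn9 had 5 UMIs in vehicle, in 2 cells, or 52.1 CPM (16.9 to 122), and 55.2 CPM (36.4 to 80.3) in corticosterone. Over microglia-like cells, 5 of 6 members were at least 2-fold higher in both libraries, all but Slfn8 (0.59 and -0.07), where 9.47% of 9170 genes were. Here too Slfn1 and Slfn4 passed the minimum only through the monocyte-like class. Between the libraries, 16.4% of 9871 genes passed 2-fold in this thin class, and Slfn1 (1.49), Slfn4 (2.83) and Slfn5 (1.94) were among them while Slfn2 had 0.23 (-0.21 to 0.70). The clusters of the class were unequally filled. One led by Fn1 held 5 vehicle and 35 corticosterone cells, one led by S100a4 and Plac8 held 21 and 16, and one led by Ace and Ear2 held 4 and 13. How much of these ratios came from this mix was not tested.

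Set against neutrophil-like cells, the blood classes differed by member. Slfn4 was lower in monocyte-like cells, with log2 ratios of -3.62 (-5.49 to -2.26) in vehicle and -2.93 (-3.17 to -2.69) in corticosterone. Slfn9 was higher there, with 3.10 (1.28 to 4.66) and 1.57 (0.82 to 2.30), the vehicle value from 5 UMIs in 2 monocyte-like cells. Slfn5 was higher there too, with 1.58 (0.73 to 2.33) and 0.80 (0.61 to 0.99). Slfn1 did not separate the blood classes, with -0.24 (-0.95 to 0.38) and 0.02 (-0.16 to 0.20).

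The border-associated macrophage-like class stands for macrophages outside the brain tissue proper, and in vehicle it was as low as microglia-like cells in Slfn1 and Slfn4, with 13 UMIs of each. In corticosterone they had 40 and 37 UMIs, or 5.83 and 5.39 CPM, above microglia-like cells by 2.65 and 0.95 on the log2 scale. Slfn5 had 43.5 CPM (39.7 to 47.6) in its vehicle cells, against 134 CPM (126 to 143) under corticosterone, above microglia-like cells by 1.84 (1.64 to 2.03) and 0.92 (0.82 to 1.02) on the log2 scale. Slfn2 was at 73.5 and 182 CPM, above them by 0.73 and 0.43. Slfn8, at 55.1 and 77.9 CPM, lay at -0.01 and -0.21. Between the libraries, 4 members reached the minimum of 5 CPM. Of these, Slfn5 (1.62, 1.46 to 1.79) and Slfn2 (1.31) were at least 2-fold higher in corticosterone, against 2.97% of 9753 genes, and Slfn9 (0.77) and Slfn8 (0.50) were higher by less. Slfn1 (2.29, 1.36 to 3.32) and Slfn4 (2.18, 1.23 to 3.22) lay under that minimum. At a resolution of 1 the macrophage-like cells of the libraries fell mostly in different clusters, 914 vehicle and 12 corticosterone cells in one and 152 and 770 in another. Microglia markers in these cells stood at 82.3% and 64.4% of their microglia-like level.

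In order of level, Slfn1 was high in monocyte-like and neutrophil-like cells, whose intervals overlapped in both libraries, and low in macrophage-like and microglia-like cells, whose intervals overlapped in vehicle. Slfn4 was highest in neutrophil-like cells, then in monocyte-like cells, in both libraries. For Slfn5 the order was monocyte-like, neutrophil-like, macrophage-like, microglia-like in both libraries, with neutrophil-like and macrophage-like cells overlapping in vehicle. For Slfn2 it was monocyte-like, neutrophil-like, macrophage-like, microglia-like, with the blood classes overlapping in corticosterone. The Slfn8 intervals of the 4 classes overlapped in vehicle. Those of Slfn9 were highest in monocyte-like cells, in vehicle from 5 UMIs in 2 cells.

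Likeness was taken as Pearson's r of log2(CPM + 1) over 8 sums, 4 classes in each of the libraries, among 6238 genes with a mean of at least 20 CPM. The classes were those with at least 50 cells in both libraries, microglia-like, macrophage-like, neutrophil-like and erythroid cell-like. Monocyte-like cells, with 30 in vehicle, did not enter, and the erythroid barcodes carry the microglial RNA given above. The 8 sums share libraries and classes, so r is a description only. The genes most like Slfn1 were Atp8b4 (0.997), Txn1 (0.997) and Triobp (0.995), and those most like Slfn4 were Ly6c2 (0.995), Plp2 (0.994) and S100a11 (0.993). For Slfn2 they were Tspo (0.991), Tuba1c (0.986) and Arpc1b (0.985). For Slfn5 they were Rtp4 (0.981), Rab32 (0.976) and Crlf2 (0.972), and for Slfn8 Ifit2 (0.987), Herc6 (0.980) and B4galnt1 (0.966), where Rtp4, Ifit2 and Herc6 are on the interferon target list. Within the family r was highest between Slfn1 and Slfn4 (0.965) and between Slfn2 and Slfn5 (0.938), and lowest between Slfn4 and Slfn8 (0.372). Slfn9, with a mean of 16.3 CPM, was below the minimum.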

How the data were processed

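The authors deposited a matrix of UMI counts for each library, not normalized, per the file headers and values (whole numbers, totals that differ between cells). Per the labels' protocols, libraries came from a GEXSCOPE kit on an Illumina NovaSeq; the submitters' processing notes name bcl2fastq 2.19 and GRCm38. The aligner, counter, annotation and cell calling are not given in the sources used here. The members and gene lists were chosen with earlier results of these data known.

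Cells were kept with at least 500 UMIs, 300 genes and at most 20% mitochondrial UMIs, which removed 55 vehicle and 230 corticosterone barcodes. Counts of each cell were scaled to 10000 UMIs and log-transformed. Then 2000 variable genes without Schlafen genes, 30 components and 15 neighbours entered Leiden clustering (leidenalg 0.10.2) at resolution 0.5. A cluster took the class with at least 3 markers raised 2-fold in at least 10% of its cells, out of 20 marker lists; failing that, it was microglia-like where microglia markers stood at 0.5 or more of their overall level. A mixed cluster, led by markers of several classes other than microglia, was clustered again with 500 variable genes and 10 components, and its parts were named. The naming thresholds were set after the clusters were seen. Scrublet, run through Scanpy 1.11.5, called 0 cells, so no doublet was removed. UMIs were summed per class and library. Intervals are at 95%, exact Poisson for sums and ratios and Clopper-Pearson for shares; a count of 0 was read as allowing 3. The ratio script was tested on simulated data.

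Named genes were all 6 members, the highest and lowest of each pathway list at a mean of at least 20 CPM (3 and 3 for targets), and the 3 genes most like each member. A few genes that this rule or the lists would name are not reported here. Promoters and starts came from RefSeq tables, gene models from GENCODE. Alternatives covered cell filter, resolution, class rule, doublets, scaling (edgeR 4.0.16 TMM, DESeq2 1.42.0 size factors), minimum level, thinning and cell subsets.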

Additional observations from a re-analysis of the deposited data

How the results depend on the processing

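No paired analysis was possible because each group is 1 library and no result comes from a test; for the same reason no replicate could be left out. The count of members at least 2-fold higher in corticosterone microglia-like cells was 3 of 4 tested and ranged from 2 to 4 over 15 alternatives. It was 2 of 3 tested with a minimum of 20 CPM, which removes Slfn9. It was 2 of 4 in cells with no interferon target UMI and 2 of 4 without the interferon-led cluster. The count of 4, of 6 tested, came from pooling the cells of all classes and is not a microglia-like value. Slfn4 stood at 1.35 in that pool, against 0.46 in microglia-like cells. The count of members higher in neutrophil-like than in microglia-like cells was 4 and ranged from 3, in the Camp-led cluster alone, to 5, with monocyte-like cells instead. Each of these counts includes Slfn1 and Slfn4, which passed the minimum only through the class compared with microglia-like cells and so had to differ. In the Camp-led cluster, Slfn2 was the only other member counted. The count of members with a higher thinned share was 4 and ranged from 4 to 5. Of 41 interferon pathway genes 20 were at least 2-fold higher, and in microglia-like cells with no interferon target UMI after thinning 7 of 36 were, since those cells were picked for lacking these transcripts; over the other alternatives the count lay between 14 and 24. With the Camp-led cluster alone, neutrophil-like over microglia-like cells had the opposite sign for Slfn5 in vehicle (-0.19) and for Slfn8 in corticosterone (-0.82). Classing each cell by its own markers kept the direction of neutrophil-like over microglia-like cells for every member, but lowered the vehicle ratio of Slfn4 from 7.97 to 6.82 and of Slfn2 from 2.55 to 1.63. TMM and DESeq2 factors raised every microglia-like ratio by 0.09 and 0.11. The leaving out of the interferon-led cluster, the adding of the low-UMI cluster and the neutrophil clusters taken alone were chosen after seeing the data. Depth limits the vehicle monocyte-like class, the vehicle interferon-led cluster, and Slfn1 and Slfn4 in microglia-like cells.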

Other observations

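Cells that stayed unnamed carried the same members. A cluster led by class II histocompatibility genes, with 156 vehicle and 70 corticosterone cells, had Slfn5 at 55.3 and 133 CPM, a log2 ratio of corticosterone over vehicle of 1.27 (0.81 to 1.73), and Slfn2 at 89.1 and 192 CPM (1.11, 0.74 to 1.48). Slfn1 had 7 and 20 UMIs there, 5.03 and 31.0 CPM (2.62, 1.32 to 4.11). A cluster of low-UMI barcodes led by Kcnq1ot1, with 601 and 1134 cells, had Slfn5 at 12.4 and 57.9 CPM (2.22, 1.49 to 3.04), Slfn2 at 37.9 and 85.7 CPM (1.18) and Slfn8 at 88.3 and 141 CPM (0.67).

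Of the other features whose symbol begins with Slfn, Slfn3, the second gene of middle length, had 30 UMIs in the vehicle library and 49 in the corticosterone library, 0.608 and 0.576 CPM over all cells. Slfn14 had 0 UMIs in both, and Slfnl1 had 1 and 2.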
